A study of Bos taurus with 8 samples.

Results

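Mitochondrial ribosomal protein genes encode the protein part of the ribosome that works inside mitochondria. They were taken as the array probes whose gene symbol, in upper case, begins with MRPL or MRPS followed by a number. The rule uses names only and no measured value. It found 75 of the 15227 named genes on the array, carried by 128 probes, and each gene is represented by its brightest probe. Of the 75 genes, 48 encode proteins of the large subunit and 26 proteins of the small subunit. MRPS36 bears the name but is known as a component of the 2-oxoglutarate dehydrogenase complex, and it is given apart. The filter on dim probes left 74 of the 75, and MRPS12, a small-subunit protein of the decoding site, was the gene not tested.

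The mitochondrial ribosome is encoded in both genomes of the cell: its ribosomal RNA comes from mitochondrial DNA, and all of its proteins come from nuclear genes and are imported. It translates the few messenger RNAs of mitochondrial DNA, which encode core subunits of the respiratory chain and of the ATP synthase. Part of its proteins have bacterial homologues, and the rest were added in the mitochondrial lineage. Preimplantation embryos carry mitochondria inherited from the oocyte, and respiration supplies much of their ATP before the blastocyst stage.

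The study addressed how bovine blastocysts differ in their transcripts when the cleaving embryo had met high glucose. Embryos were made by in vitro maturation, fertilization and culture from the ovaries of slaughtered dairy cattle of no stated single breed. Glucose embryos were held in 5 mM glucose from day 0 to day 3 and control embryos in 0.2 mM. After that both kinds grew in the same medium, and blastocysts were taken at 180 h from in vitro fertilization. The glucose and the control side each had 4 pools of 10 whole embryos, with no sex given, so a pool mixes all cells of the blastocyst. In such pools, fewer cells of a type and less RNA per cell cannot be told apart. RNA was amplified in 2 rounds before labelling. Each of 8 arrays of 43794 probes held 1 glucose pool and 1 control pool in opposite dyes, Cy5 and Cy3. Arrays of one number were read as a dye swap of the same 2 pools, which is inferred, and this gives 4 replicates. Values are log2(glucose/control), positive where the glucose pool was brighter, given as the mean over the 4 replicates with the SD between them. The number of arrays limits the precision, and p-values measure only the spread between these pools.

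Across the series, the share of probes brighter than negative controls in either channel was 66.2% to 82.2% by array, and 32935 probes entered the test. All 12 trophectoderm markers, all 8 primitive endoderm markers and 8 of 9 inner cell mass markers were tested, and 3 of 12 cumulus markers (LHCGR, FOXL2 and AMH) were too dim. On the array of replicate 1 with glucose in Cy3, 11.5% of probes exceeded the Cy3 negative controls, and 40 of the 75 members did. In each of the other 15 channels 70 to 75 members did, and 70 members did in all 15. Replicate 4 had the widest spread over all named genes, with an SD of 0.49 against 0.23, 0.22 and 0.29 in replicates 1 to 3. Mesenchymal markers had a median of 1.05 in replicate 1 and 1.39 in replicate 3, against -0.08 in replicate 2 and -0.07 in replicate 4. Primitive endoderm markers had a median of -0.34 in replicate 4 and 0.02, 0.25 and 0.26 in replicates 1 to 3. The part of these markers in the values below was not tested.

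As a group, the mitochondrial ribosomal protein genes sat with the typical gene of the array, whose ratio the normalization within each array sets near 0. Their median ratio was -0.0014 over the mean of 4 replicates, with 37 genes above 0 and 37 below. With median centring in place of loess it was 0.02, with 41 above 0. Over all 12577 named genes tested the median was 0.0057 and 52.3% lay above 0. Single genes ranged from -0.29 for MRPL52 to 0.26 for MRPL19. None reached 1.5-fold, as 87 of the 12577 named genes did. The ratio lay within 0.1 of 0 for 42 of the 74 genes and within 0.2 for 64 of them. Quartiles of the ratio were -0.07 and 0.10 over members and -0.05 and 0.09 over all named genes. In 67 of the 74 members the SD between replicates exceeded the size of the mean. The median SD was 0.25 over members and 0.20 over all named genes.

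By limma with Benjamini-Hochberg adjustment over all 32935 probes, 0 members passed 0.05, as did 0% of all probes. Every member had an adjusted p of at least 0.977. At an unadjusted p under 0.05 there was 1 member brighter after glucose, MRPL33, against 1.73% of all probes. In the other direction there were 2, MRPL23 and MRPS11, against 0.641% of all probes. The count of 3 became 1 when the 8 arrays were fitted with the array number as a replicate block. It was also 1 without replicate 1, with median spot intensities, with median centring in place of loess, with the filter on all 8 arrays or with the mean over a gene's probes, and 0 in array set 047 alone. No member was set apart by the adjusted test.

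**Figure D1:**
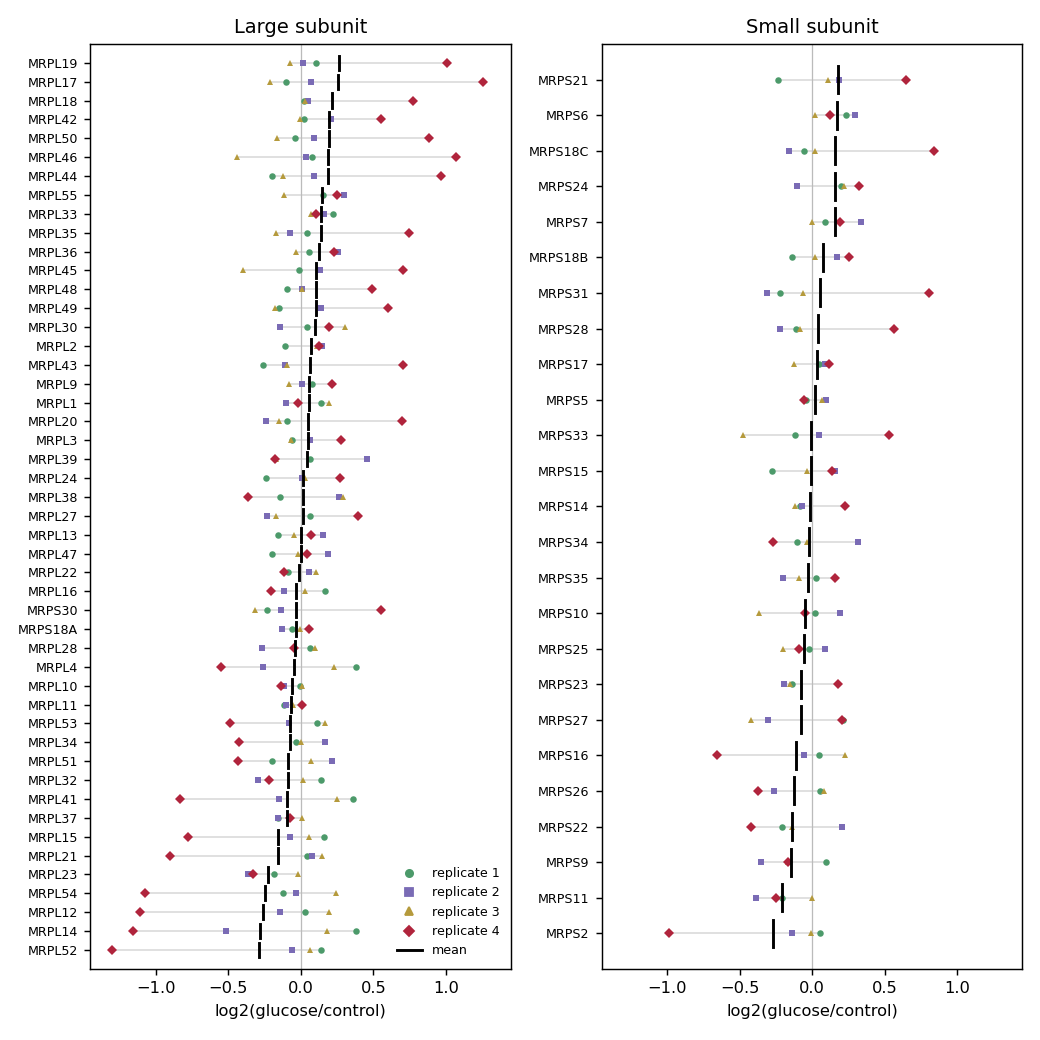
Log2(glucose/control) of each tested gene of the large subunit (48 genes) and small subunit (25 genes), sorted by the mean. Coloured symbols are replicates 1 to 4, the black bar is their mean and the grey line their range. Means stay between -0.29 and 0.26, while the replicate 4 symbols reach from -1.30 to 1.26.

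The large subunit carries the peptidyl transferase centre and the exit tunnel. Its 48 genes had a median ratio of 0.01, with 27 above 0. Under the authors' deposited table this median was -0.0028, and without replicate 1 it was 0.04. The 30 genes with bacterial homologues had a median of 0.01 (17 above 0) and the 18 specific to mitochondria 0.03 (10 above 0). The small subunit binds the messenger RNA and decodes it. Its 25 tested genes had a median of -0.01, with 10 above 0. That small-subunit median changed sign to 0.02 with median centring in place of loess and with median spot intensities. The 15 tested small-subunit genes with bacterial homologues had a median of 0.02 and the 10 specific to mitochondria -0.04. Of those 10, 2 lay above 0 by their brightest probes, MRPS18B at 0.08 and MRPS31 at 0.05. MRPS22, MRPS23, MRPS26 and the pentatricopeptide repeat protein MRPS27 were among those below 0. The second probes of MRPS22 and MRPS23 had means of 0.23 and 0.22, above 0, and that of MRPS26 had -0.05. These medians were not tested against each other.

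The members that kept one sign in all 4 replicates were 5 of 74, or 6.76%, against 9.6% of all named genes. In 3 of them glucose was brighter throughout. MRPL33, a short protein of the large subunit with a bacterial homologue, had 0.22, 0.16, 0.07 and 0.10 in replicates 1 to 4. Every replicate lay above 0 and the values spanned less than 0.2. The mean was 0.14 ± 0.07 (SD, n = 4), or 1.1-fold, with an adjusted p of 0.977 by limma. MRPS6, which binds ribosomal RNA on the platform of the small subunit, had 0.24, 0.29, 0.02 and 0.13, a mean of 0.17 ± 0.12. Replicate 3 was the low one, near 0. The second probe of MRPS6 gave 0.15, 0.06, -0.01 and 0.52, so its replicate 3 lay on the other side of 0. On single arrays with glucose in Cy5, the brightest MRPS6 probe read 0.08, -0.09, -0.18 and -0.13 in replicates 1 to 4. With glucose in Cy3 it read 0.39, 0.68, 0.22 and 0.39. MRPL18, a large-subunit protein of the family that binds the smallest ribosomal RNA in bacteria, had 0.02, 0.05, 0.03 and 0.77. Its mean of 0.22 ± 0.37 rested on replicate 4, and without that replicate it was 0.03. In each of replicates 1 to 3 the 2 arrays of MRPL18 lay on opposite sides of 0.

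In the other 2, the replicate values lay below 0 throughout. MRPL23, a protein at the exit of the peptide tunnel in the bacterial ribosome, had -0.18, -0.37, -0.02 and -0.33. Replicate 3 was again close to 0 and the others lay below it. The mean was -0.22 ± 0.16, with an adjusted p of 0.977 by limma. The second MRPL23 probe had -0.19, -0.41, -0.18 and -0.38, a mean of -0.29 ± 0.12, so both probes had the same order of replicates. This gene gave the lowest p among the members. Its probes were dim, at mean log2 signals of 8.20 and 8.11.

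MRPS11, a protein of the small-subunit platform, had -0.21, -0.39, 0.00 and -0.25, a mean of -0.21 ± 0.16. Its other 3 probes gave means of 0.03, 0.05 and 0.06, above 0. MRPS11 also carried one of the largest dye differences among the members. With glucose in Cy5 its single arrays read -0.90, -1.11, -1.01 and -0.95 in replicates 1 to 4. With glucose in Cy3 they read 0.49, 0.34, 1.01 and 0.45. Each pair lay on opposite sides of 0, and the replicate value is the small remainder after averaging. MRPL46, a large-subunit protein, is encoded by the gene next to MRPS11 in the RefSeq gene order (assembly ARS-UCD2.0), the only such pair of neighbours among the members, and its replicates are given below with replicate 4 above 0.

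Some members were named for the smallest spread between replicates, so the closeness of their replicates follows from that choice. MRPL11, of the base of the factor-binding stalk, had -0.12, -0.10, -0.06 and 0.00, a mean of -0.07 ± 0.05. MRPL10, which anchors the stalk, had -0.01, -0.12, 0.01 and -0.14, a mean of -0.06 ± 0.08. MRPS5, a protein of the small-subunit body, had -0.04, 0.10, 0.07 and -0.05, a mean of 0.02 ± 0.08. Its single arrays read -0.27, -0.27, -0.12 and -0.33 with glucose in Cy5, and lay above 0 in every replicate with glucose in Cy3. In none of these 3 did replicate 4 stand apart from the others. All 3 exceeded the negative controls in all 16 channels, as 40 of the 75 members did.

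Some members have names that do not match their place. MRPS30 and MRPS18A are named for the small subunit but sit in the large one. MRPS30 had -0.23, -0.13, -0.32 and 0.55, so replicate 4 lay on the other side of 0 from the rest, and its mean was -0.03 ± 0.40. MRPS18A had -0.06, -0.13, 0.00 and 0.06, a mean of -0.03 ± 0.08. MRPS36, the 2-oxoglutarate dehydrogenase component, had -0.26, -0.04, -0.04 and 0.09, a mean of -0.06 ± 0.15. The untested MRPS12 read 0.05, 0.28, -0.07 and -0.12 and exceeded the negative controls in 2 of 16 channels.

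Further members are given by their place in the ribosome. They were picked after the values were seen, and no site was tested. At the exit of the peptide tunnel, where new proteins reach the inner membrane, MRPL22 had -0.09, 0.06, 0.10 and -0.11. MRPL24 had -0.24, 0.01, 0.03 and 0.27, and MRPL45, which ties the ribosome to the membrane, had -0.01, 0.13, -0.40 and 0.70. All 3 had replicates on both sides of 0, with means of -0.01 ± 0.11, 0.02 ± 0.21 and 0.11 ± 0.46. These are values of the brightest probes. In replicate 4 the other MRPL22 probes read 0.401 and 0.365, and the second probes of MRPL24 and MRPL45 had means of -0.04 and -0.07. MRPL23 and MRPL17 of the same site are described above and below. On the platform of the small subunit, MRPS21 had -0.23, 0.18, 0.11 and 0.64, a mean of 0.18 ± 0.36, with replicate 4 the highest.

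In the head of the small subunit, MRPS7 had 0.09, 0.34, 0.00 and 0.19, a mean of 0.15 ± 0.15, and MRPS9 had 0.10, -0.35, -0.16 and -0.17, a mean of -0.15 ± 0.18. The means of these 2 genes lay on opposite sides of 0, each close in size to its SD. The second MRPS7 probe, of similar signal, read -0.04, -0.30, 0.13 and 0.30, a mean of 0.02 ± 0.26. By its brightest probe MRPS7 had the largest dye difference of the members. Its single arrays read -1.14, -1.23, -0.78 and -0.74 with glucose in Cy5, and 1.32, 1.91, 0.78 and 1.13 with glucose in Cy3. Among large-subunit proteins that resemble enzymes, MRPL44, which has a ribonuclease III fold, had -0.20, 0.09, -0.12 and 0.97, a mean of 0.19 ± 0.54. MRPL39, which resembles a threonyl-tRNA synthetase, had 0.06, 0.46, -0.17 and -0.18, a mean of 0.04 ± 0.30. Replicate 4 was the highest value of MRPL44. The probes of MRPL39 disagreed there: the brightest read -0.18 in replicate 4 and the others 1.27, 0.33 and -0.24.

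By their brightest probes, MRPL4 and MRPL41, a protein specific to mitochondria, had the order of signs across pools that MRPL14 had. MRPL4, which lies near the exit tunnel, had 0.38, -0.26, 0.23 and -0.55. MRPL41 had 0.36, -0.15, 0.25 and -0.83. In all 3 genes replicates 1 and 3 lay above 0 and replicates 2 and 4 below it, and the means were -0.05 ± 0.43 and -0.09 ± 0.54 for MRPL4 and MRPL41. The second probes of MRPL14 and MRPL41 did not have this order of signs: they read -0.11, -0.21, -0.11 and -0.07, and 0.23, 0.28, -0.04 and -0.14. Over all members, 13 of 74 (17.6%) had it, against 7.74% of all named genes. The order of signs was noticed after the values were seen and was not tested.

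Replicate 4 set the ends of the list. The SD across the 74 members was 0.15, 0.20 and 0.17 in replicates 1 to 3 and 0.56 in replicate 4. The medians were -0.02, -0.01, -0.01 and 0.11. The number of members above 0 was 35, 37, 33 and 43. Replicate 4 held the largest absolute value in 45 of 74 members, or 60.8%, against 54.9% of all named genes. In replicate 4, 18 members exceeded 0.5 and 10 lay below -0.5, which is 24.3% and 13.5%, against 15.1% and 9.34% of all named genes. The difference in spread between the members and all genes was not tested.

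**Figure D2:**
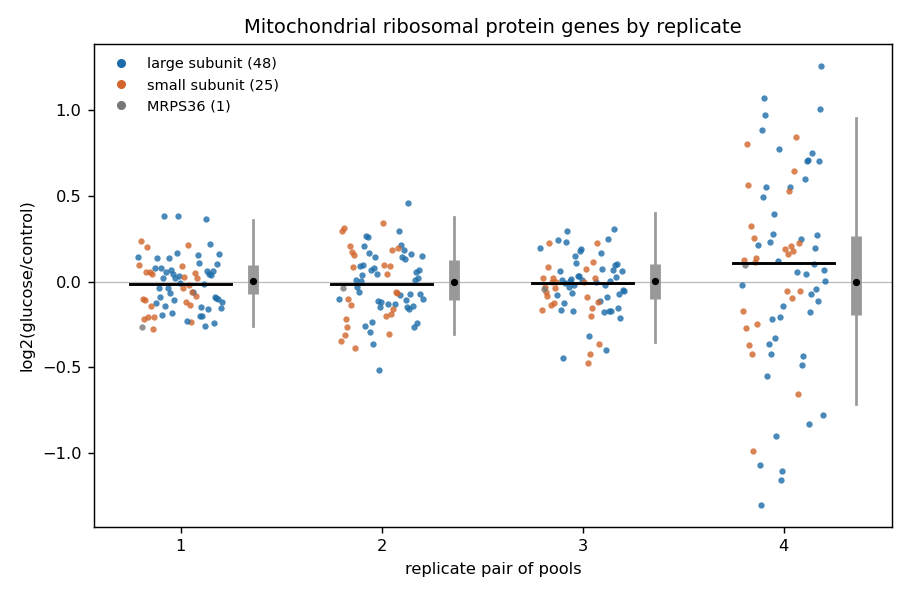
Log2(glucose/control) of the 74 tested genes in each replicate, coloured by subunit, with the median as a black line. Beside each, the grey bar spans the quartiles of all 12577 named genes tested, the thin line their 5th to 95th percentile and the black dot their median. Members stay between -0.51 and 0.46 in replicates 1 to 3 and spread from -1.30 to 1.26 in replicate 4.

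The 4 members with the lowest means, MRPL52, MRPL14, MRPL12 and MRPS2, all lay low in replicate 4. MRPL54, described below for its probes, read -1.07 there, below MRPS2. MRPL52, a large-subunit protein specific to mitochondria, had 0.14, -0.06, 0.06 and -1.30. In replicate 4 its log2 signal was 12.65 in glucose and 13.95 in control. The first 3 replicates straddled 0, and the mean of -0.29 ± 0.68 became 0.05 without replicate 4. MRPL14, a protein at the face of the large subunit that meets the small one, had 0.38, -0.51, 0.18 and -1.16. It had the largest SD of the members, 0.70, and its mean of -0.28 became 0.02 without replicate 4.

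MRPL12, the stalk protein that recruits translation factors and is also reported to bind the mitochondrial RNA polymerase, had 0.03, -0.15, 0.19 and -1.11. Its mean was -0.26 ± 0.58, and 0.03 without replicate 4. MRPS2, which lies between head and body of the small subunit, had 0.06, -0.14, 0.00 and -0.99, a mean of -0.27 ± 0.49. In each of these 4 genes replicate 4 lay below the lowest of the others. They were named for low means and replicate 4 had the widest spread, so this follows in part from the choice.

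Further members, named for a high mean or a large SD, had their highest value in replicate 4. MRPL17, a protein near the exit of the tunnel, had -0.10, 0.07, -0.21 and 1.26. Replicates 1 to 3 lay on both sides of 0, and the mean of 0.25 ± 0.68 became -0.08 without replicate 4. MRPL19, which in bacteria contributes to a bridge between the subunits, had 0.10, 0.02, -0.07 and 1.00, a mean of 0.26 ± 0.50. MRPL46, of the large subunit and specific to mitochondria, had 0.08, 0.04, -0.44 and 1.07. Its mean of 0.19 ± 0.64 became -0.11 without replicate 4. MRPL42, also specific to mitochondria, had 0.02, 0.21, -0.01 and 0.55, a mean of 0.19 ± 0.26. As follows in part from how these 4 genes were named, their highest replicate was replicate 4. The second probes of MRPL19 and MRPL42 both read 0.26 there, with means of 0.01 and 0.06. Other members, such as MRPL44 at 0.97, lay above MRPL42 in replicate 4.

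At least 2-fold on both arrays of replicate 4, 1 member was brighter after glucose (MRPL17) and 3 were dimmer (MRPL12, MRPL14 and MRPL52). That is 1.35% and 4.05% of members, against 2.97% and 1.07% of all named genes. No member was past 2-fold on both arrays of replicates 1, 2 or 3. Among all named genes the shares in these were highest in replicate 3, at 0.795% brighter and 0.215% dimmer. The 4 members past 2-fold in replicate 4 all encode proteins of the large subunit, as do 48 of the 74 tested members. MRPS2, of the small subunit, read -1.18 and -0.80 on the 2 arrays. The share by subunit was not tested.

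**Figure D3:**
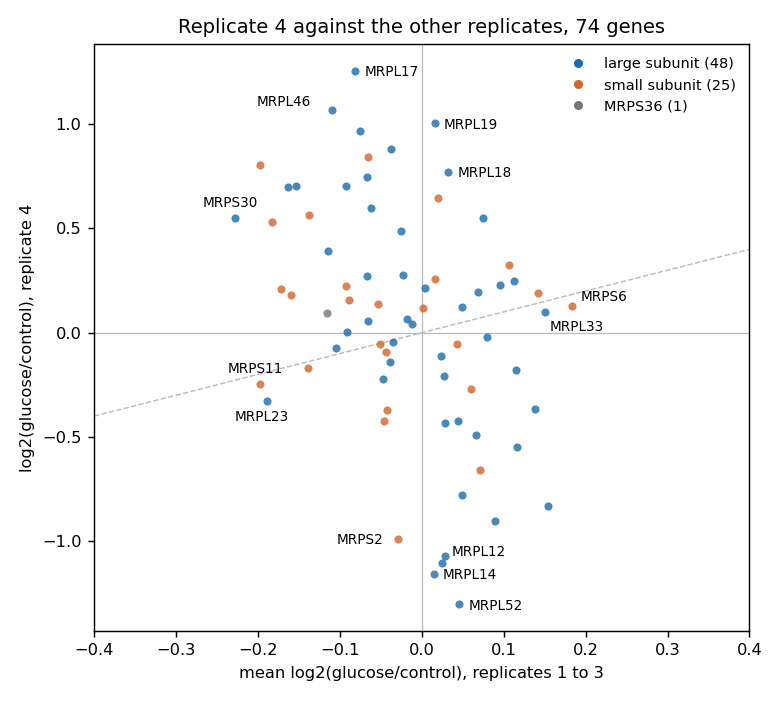
Log2(glucose/control) in replicate 4 (vertical axis) against the mean of replicates 1 to 3 (horizontal axis, narrower scale) for the 74 tested genes, with a dashed line of equal values. The genes farthest from 0 in replicate 4 lie near 0 on the horizontal axis. MRPL33, MRPS6, MRPL23 and MRPS11, named for one sign in all replicates, keep it on both axes by that choice.

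Members did not keep their order between pools. In 47 of 74 members, or 63.5%, replicate 4 lay on the other side of 0 from the mean of replicates 1 to 3, against 57.1% of all named genes. Among genes of the large subunit it was 34 of 48 and of the small subunit 12 of 25. Across the 74 members the correlation of ratios was -0.54 between replicates 3 and 4 and -0.33 between replicates 1 and 4. It was 0.22 between replicates 1 and 3, and between -0.19 and 0.17 in the remaining pairs. Over all named genes the corresponding values were -0.28, -0.12 and 0.31, and from -0.15 to 0.12. These are descriptions across genes, which are not independent replicates.

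Among the members, the 2 arrays of a dye swap gave more similar raw ratios in replicate 4 than in the other replicates. Across members the raw correlation between the arrays with glucose in Cy5 and in Cy3 was -0.36, -0.37, -0.26 and 0.70 in replicates 1 to 4. Over all named genes it was 0.32, 0.03, 0.52 and 0.73. The ratio had one sign on both arrays in 39, 40, 37 and 59 of 74 members, or 52.7%, 54.1%, 50% and 79.7%. Over all named genes these shares were 51.4%, 50.2%, 55.8% and 68.1%. The members were brighter than the typical named gene, and the part of signal in these shares was not tested. Members with a dye difference above 0.5 were 3: MRPS7, MRPL38 and MRPS11, with Cy5 dimmer than Cy3 by 1.13, 0.96 and 0.78 on the log2 scale. They were named after their values were seen. Over the other 71 members the correlations were 0.16, 0.10, 0.19 and 0.86. After removal of each gene's dye effect, the arrays of one number correlated at 0.83, 0.81, 0.69 and 0.97 across members.

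**Figure D4:**
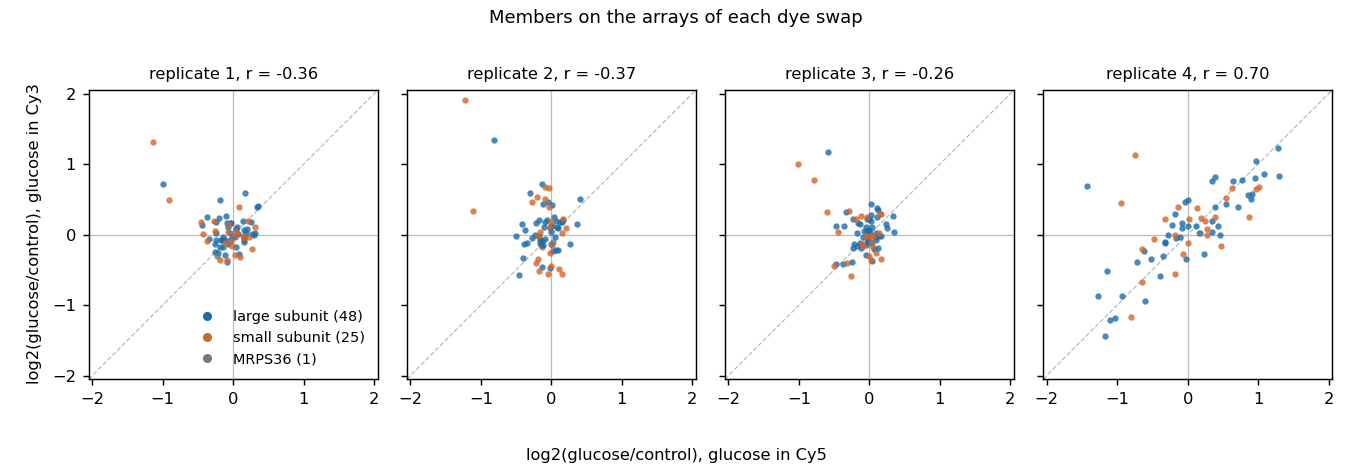
Log2(glucose/control) of the 74 tested genes on the array with glucose in Cy5 (horizontal) and the array with glucose in Cy3 (vertical), 1 panel for each replicate, with Pearson's r across genes and a dashed line of equal values. Replicate 4 follows the line, while replicates 1 to 3 form a cloud around 0 with a few genes at the upper left, where the dye difference is large.

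Several probes of a gene gave a further reading of the same pools. Of the members, 36 have at least 2 tested probes. Their mean ratios had one sign in 17 of the 36, and the median range between probes of a gene was 0.13. No gene had probes more than 0.5 apart in the mean. In replicate 4 all probes had one sign in 24 of the 36 genes. Of these 36, 14 had a brightest probe beyond 0.5 in size, and in 10 of the 14 all probes had one sign. Across the 48 further probes the correlation with the brightest was 0.215 in replicate 4. For 16 of them the brightest lay beyond 0.5, and in 15 of the 16 the further probe was smaller in size. Such shares over all named genes are not given here.

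For MRPS18C, a small-subunit protein of the platform, the brightest probe gave 0.84 in replicate 4 and the other 0.73. For MRPS31, specific to mitochondria, they gave 0.80 and 0.70. For MRPL54, also specific to mitochondria, they gave -1.07 and -0.47. In these 3 genes the probes lay on one side of 0, with the brightest the farther out.

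In other genes the second probe stayed near 0. In MRPL12 the probes gave -1.11 and -0.03 in replicate 4, and in MRPL14 -1.16 and -0.07. The second probes of both were dim, at mean log2 signals of 7.11 and 7.73, and the part of the signal in this was not tested. In MRPL15, a large-subunit protein with a bacterial homologue, the brightest probe gave -0.78 and the second 1.11, on opposite sides of 0. The brightest MRPL15 probe had 0.16, -0.07, 0.06 and -0.78 in replicates 1 to 4, and the second -0.40, 0.31, -0.23 and 1.11. The mean of the first was -0.16 ± 0.42 and of the second 0.19 ± 0.68. MRPL15, MRPL54, MRPS18C and MRPS31 were named for their probes after the values were seen.

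**Figure D5:**
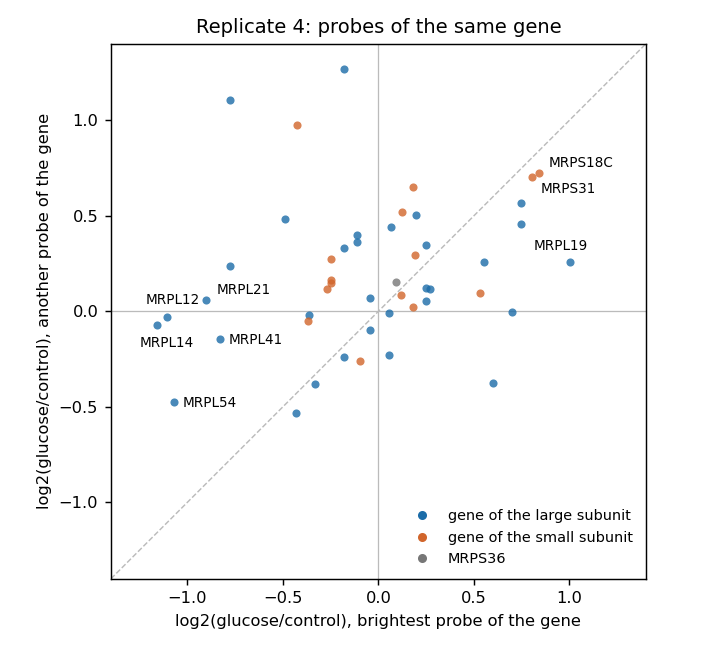
Log2(glucose/control) in replicate 4 of each further tested probe of a gene (vertical, 48 probes) against that of the gene's brightest probe (horizontal), with a dashed line of equal values. MRPS18C and MRPS31 lie near the line. MRPL12 and MRPL14 lie far to the left at a height near 0.

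Spread between replicates was also set against signal. Split at the median signal, the 37 brighter members had a median SD of 0.29 and the 37 dimmer ones 0.18. In replicate 4 the SD across members was 0.64 in the brighter ones and 0.47 in the dimmer ones. In replicate 3 it was 0.14 and 0.19.

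The genes that work with the mitochondrial ribosome were described from lists chosen with earlier results known. None of these genes passed the adjusted threshold, and none had an unadjusted p under 0.05 by limma. The 6 tested ribosomal proteins with other names had a median of -0.01. Among them ICT1, a release factor built into the large subunit, had 0.07, -0.66, 0.32 and -0.82, a mean of -0.27 ± 0.55. AURKAIP1, a small-subunit protein, had a mean of -0.09 ± 0.13, and GADD45GIP1, of the large subunit, -0.05 ± 0.09. The SD exceeded the mean in all 3.

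The 10 tested translation factors had a median of 0.05, with 6 above 0. MTIF3, an initiation factor, was the only one with one sign throughout, at -0.01, -0.13, -0.19 and -0.26, a mean of -0.15 ± 0.11. The release factor MTRF1L had -0.15, 0.20, 0.08 and 0.82, with replicate 4 the highest. TSFM, an elongation factor, had a mean of -0.13 ± 0.25. The largest absolute value of 9 of these 10 factors was in replicate 4, as it was in 54.9% of all named genes.

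The 16 tested genes for charging mitochondrial tRNAs had a median of -0.02, with 7 above 0. GATC, a subunit of the glutamyl-tRNA amidotransferase, had a mean of 0.16 ± 0.17. The phenylalanyl-tRNA synthetase FARS2 had 0.20, 0.20, 0.01 and 0.04, above 0 in 4 of 4 replicates, a mean of 0.11 ± 0.10. The tyrosyl-tRNA synthetase YARS2 had a mean of -0.19 ± 0.24, with 1 of 4 replicates above 0, and over all its probes the mean was 0.10.

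The 13 tested ribosome assembly genes had a median of -0.01, with 4 above 0. The GTPases MTG1 and GTPBP5 had means of -0.12 ± 0.11 and -0.13 ± 0.26. FASTKD2, which binds mitochondrial ribosomal RNA, had 0.11 ± 0.25, and -0.02 without replicate 4. MTG1 and GTPBP5 each had 1 replicate above 0, and FASTKD2 had 2.

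The 11 tested genes of mitochondrial DNA maintenance, transcription and RNA handling had a median of 0.08, and their SD in replicate 4 was 0.75. The single-strand DNA-binding protein SSBP1 had 0.03, 0.30, -0.13 and 0.59, a mean of 0.20 ± 0.31. ELAC2, which cuts tRNAs from mitochondrial transcripts, had 0.00, -0.26, 0.08 and -0.83, a mean of -0.25 ± 0.41. The transcription factor TFB2M had a mean of -0.17 ± 0.36.

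The 8 tested nuclear regulators of mitochondrial genes had a median of 0.00. GABPB1, a subunit of nuclear respiratory factor 2, had -0.14, -0.19, -0.10 and 1.30, so replicate 4 stood on the other side of 0 from the rest. Its mean of 0.22 ± 0.72 was -0.14 without replicate 4. The receptor ESRRA and the coactivator PPRC1 had means of -0.10 ± 0.21 and 0.11 ± 0.43, and both changed sign without replicate 4.

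The cytosolic ribosome and respiratory complex I were set beside the members. The 68 tested cytosolic ribosomal protein genes had medians of -0.11, -0.01, 0.08 and -0.03 in replicates 1 to 4, and the 36 complex I genes 0.03, 0.04, -0.02 and 0.03. The SD across genes in replicate 4 was 0.52 and 0.71, against 0.56 for the mitochondrial ribosome. Replicate 4 lay on the other side of 0 from the mean of replicates 1 to 3 in 63.2% of cytosolic ribosomal and 55.6% of complex I genes. The median over 4 replicates was -0.04 and 0.01. In all 3 lists the spread in replicate 4 was the widest of the 4 replicates, and no difference between the lists was tested.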

How the data were processed

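The deposited scanner tables give spot intensity and local background in both channels, without normalization, per the file headers. The submitters' processing notes name limma. The authors' deposited series table holds 1 score per probe and array with no stated unit. Set against the scanner values, it was read as log2 glucose over log2 control signal, which is inferred: recovered log2 ratios correlated at 0.973 to 0.996 across the brighter probes, glucose over control on every array. Its column medians were 0.9985, 0.9992, 0.9996, 0.9999, 0.9993, 0.9981, 0.999 and 1. Its normalization stays unknown, and it served as an alternative.

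Computation used limma 3.58.1 in R 4.3.3. From the mean intensity of each spot, the median background was removed by normexp (offset 50), and loess within each array followed, with control spots at weight 0. Ratios of the 2 arrays of one number were averaged. Across all probes, after removal of the dye effect, same-numbered arrays correlated at 0.734, 0.773, 0.847 and 0.912, each above its highest correlation with another number (0.215, 0.161, 0.215 and 0.0642). The labels do not state this pairing. Probes entered the test if, on 4 or more of the 8 arrays, either channel lay over the mean plus 2 SD of the 153 negative controls. On the log2 scale, lmFit and eBayes tested the 4 replicate ratios against 0, two-sided. The fit was tested on simulated data. No spot of a member was saturated.

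Gene names come from the array annotation given, where 21790 probes have 1 symbol and 22004 are unnamed here. All 75 member symbols match current RefSeq symbols. Probe sequences were not used here, so reads of pseudogenes or paralogues by a probe were not tested. Members, lists and alternatives were chosen with earlier results of these data known. Members are named by rule: those past the threshold, up to 5 per direction of lowest p with one sign in 4 replicates, the 4 highest and 4 lowest means, the 4 largest and 4 smallest SDs, genes with probes over 0.5 apart, and MRPS30, MRPS18A and MRPS36. From each other list the 3 of lowest p are named. The other members described by their place, probes, dye difference or order of signs were added after their values were seen.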

Additional observations from a re-analysis of the deposited data

Results flagged for a closer look

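Among 61 sets of 4 values examined, 10 held 1 value standing far from the other 3 by Dixon's criterion, and 9 of these were from replicate 4. Chance alone does this in about 1 of 20 groups, but the sets overlap and include genes named for extreme means or SDs, so the count is a description and no measure against chance. The values of MRPL18, MRPL19 and MRPL52 in replicate 4 were 0.77, 1.00 and -1.30, and that of GABPB1 was 1.30. The replicate 4 medians were 0.11 over the members, 0.063 over the large subunit, 0.14 over the small subunit and 0.17 over the small-subunit proteins specific to mitochondria, each above those of replicates 1 to 3. The SD across members in replicate 4 was 0.56. In replicate 1, the array that carried glucose in Cy3 showed 11.5% of probes brighter than negative controls in its glucose channel, where the SD of the negative controls was 569 and 6.08 without its brightest spot. Over all tested members, replicate 4 stood apart in 7 (9.46%) and replicate 1 in 1 (1.35%), against 6.2% and 0.628% of all named genes.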

How the results depend on the processing

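Over 17 alternatives, 0 members passed the adjusted threshold, and the lowest adjusted p of a named member or associated gene was 0.861. The median over members stayed between -0.0236 and 0.0294. The count at an unadjusted p under 0.05, 3 in the report, was 1 with median spot intensity, median centring, the filter on all 8 arrays, the mean over probes and the replicate block (consensus correlation 0.702), and 0 in array set 047 alone. Leaving out 1 replicate gave 1 to 4 members, a large-subunit median of 0.0095 to 0.0419, and 10 to 16 members of one sign (over 3 replicates). One sign in all replicates was not counted with the block or within an array set. The replicate block changed no other call.

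Of 627 values of named genes, 604 kept their direction and 23 in 16 genes did not. Median spot intensity gave 0.0435 for MRPS30, 0.17 for MRPS18A, 0.0384 for MRPS36, 0.0272 for AURKAIP1 and 0.0381 for GADD45GIP1. The mean over probes gave 0.10 for YARS2. MRPS5 was -0.0156 in array set 047 and -0.0126 in the authors' deposited table, and MRPS30 was 0.0157 in array set 056. With 1 replicate left out, MRPS30 ranged from -0.23 to 0.0619, MRPS36 from -0.12 to 0.0038 and MRPS5 from -0.0077 to 0.0427. The ranges were -0.0811 to 0.41 for MRPL17, -0.43 to 0.0459 for MRPL52, -0.50 to 0.0151 for MRPL14, -0.41 to 0.0252 for MRPL12 and -0.11 to 0.40 for MRPL46. They were -0.0182 to 0.16 for FASTKD2, -0.14 to 0.0051 for ESRRA, -0.14 to 0.35 for GABPB1 and -0.0766 to 0.27 for PPRC1. Sign changes in these last 9 genes came without replicate 4. The cause was not tested.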
